A study of Mus musculus with 9 samples.

Results

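The proteasome genes of the lens were taken as the rows whose mouse symbol has the form Psma, Psmb, Psmc, Psmd, Psme, Psmf or Psmg followed by a number, and which reached a value of 1 in no fewer than 2 of the 9 libraries. Of 47 rows with such a symbol, 46 passed, out of 22013 entries in the table, 15820 of which carry a symbol. The row left out was Psmb6-ps2, a pseudogene copy of Psmb6. All 46 passed the filter on low values in each comparison below, so none was lost to it. The pattern also takes in Psmc3ip, which encodes a factor of meiotic recombination and no proteasome subunit, and Psme2b, a copy of Psme2 whose reads may not be told apart from those of its parent gene. The other 44 genes encode subunits, regulators or assembly factors of the proteasome. No row carries the symbol Psma8, Psmb8, Psmb9 or Psmb11, so nothing is said of their levels here.

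Lenses were collected from mouse embryos at embryonic stage E16.5. Control lenses were Mafg+/-:Mafk+/-, compound KO lenses were Mafg-/-:Mafk+/- and double KO lenses were Mafg-/-:Mafk-/-, with 3 libraries in each group and RNA of 8 lenses in each library. The alleles are germline knockouts on an ICR background, present in every cell of the embryo, and the control lenses carry 1 null allele of each gene, so no group is wild type. The deposited expression values, called values below, look like counts scaled to a fixed library total (CPM) and then by a further factor for each library, which no source used here states. Library totals of these values lay between 728036.1 and 1131183.5. The sequencing depth behind them is unknown, so no counting interval is given.

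The proteasome degrades proteins that have been tagged with ubiquitin. Its 20S core is a barrel of alpha rings, which gate the entrance, around beta rings, which carry the cutting sites. The 19S particle caps the barrel, binds the tagged protein, removes the ubiquitin chain and unfolds the protein with a ring of ATPases. The transcription factor Nrf1, encoded by Nfe2l1, pairs with a small Maf protein such as Mafg or Mafk and drives proteasome genes through antioxidant response elements, and its relative Nrf2, encoded by Nfe2l2, uses the same elements. The lens relies on protein turnover while its fiber cells differentiate and lose their organelles. The comparisons ask how the RNA of these genes stands in lenses that lack Mafg, or both Mafg and Mafk.

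Matches to the core of that element before the transcript start are shown first, because the small Maf proteins under study bind it. The window from 250 bases before to 50 bases after the start of the canonical transcript (GENCODE release M39, GRCm39, the same assembly as mm39) was searched on both strands for TGACNNNGC and TGAGNNNGC, which can occur side by side or overlap. TGACNNNGC was found in 8 of the 46 promoters (17.4%) and in 12.5% of 21734 promoters of protein-coding genes. TGAGNNNGC was found in 12 of the 46 (26.1%) and in 17.1% of all. Either of them was present in 16 of the 46 (34.8%) and in 27.3% of all. For 6 of the 8 genes with TGACNNNGC, a match that lies wholly before the start is printed on the gene's strand, in capitals. Each is printed with up to 25 bases on either side and none past the start. Gclm, a glutathione synthesis gene that Nrf2 drives, is added for comparison.
Psmb5 (beta ring), chr14:54855482-54855524, minus strand: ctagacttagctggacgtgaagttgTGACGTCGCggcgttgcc
Psmb6 (beta ring), chr11:70416149-70416182, plus strand: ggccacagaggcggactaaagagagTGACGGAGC
Psmc6 (19S ATPase), chr14:45567029-45567087, plus strand: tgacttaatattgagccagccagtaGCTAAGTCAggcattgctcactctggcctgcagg
Psmd7 (19S lid), chr8:108315189-108315247, minus strand: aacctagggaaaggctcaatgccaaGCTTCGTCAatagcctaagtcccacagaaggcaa
Psmd12 (19S lid), chr11:107370082-107370140, plus strand: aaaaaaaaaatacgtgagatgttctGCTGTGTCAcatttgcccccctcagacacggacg
Psmd9 (19S assembly), chr5:123366197-123366252, plus strand: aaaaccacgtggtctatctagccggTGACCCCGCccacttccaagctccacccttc
Gclm, chr3:122039047-122039105, plus strand: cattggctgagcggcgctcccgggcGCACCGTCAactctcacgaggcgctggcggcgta
In Psmb5, Psmb6 and Psmd9 the match reads in the direction of the gene, and in the others it lies on the opposite strand. In Psmb6 it ends at the base before the start, whereas in Psmc6, Psmd7 and Psmd12 it begins 161, 101 and 201 bases before it. The Psmc6 stretch also holds a TGAGNNNGC match, on the strand of the gene. A match describes letters in a window and does not show that a factor binds there.

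Levels between genes can be compared only per length, and for this each mean value was divided by the length of the canonical transcript in kb. The value behind each symbol is that of a transcript-level entry, so reads assigned to entries without a symbol are missing from it. In control lenses, Psmc5, a 19S ATPase, had the highest value per kb, 191.6 ± 16.0 (SD, n = 3). The beta subunits Psmb6 (178.7 ± 15.6) and Psmb4 (177.8 ± 7.17) followed, and the means of Psmb6 and Psmb4 differed by less than the SD of either. Psmb7, a beta subunit that cuts after basic residues, was next with 125.5 ± 2.99. The 3 base subunits that are not ATPases, Psmd1, Psmd2 and Psmd4, lay close together at 82.3, 88.6 and 91.6 for Psmd1, Psmd4 and Psmd2. Within the alpha and beta rings, whose subunits are each present in equal number in the assembled core, the values per kb spread from 18.8 (Psma3) to 97.5 (Psma6) and, leaving Psmb2 as the lowest aside, from 21.9 (Psmb1) to 178.7 (Psmb6). The lengths used enter these spreads, with 3593, 1042, 6002 and 1036 bases for Psma3, Psma6, Psmb1 and Psmb6. Before division their control means were 67.6, 101.6, 131.6 and 185.1. Whether each deposited entry has the length of the canonical transcript was not tested.

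The assembly factors lay among or below the lowest subunits. Psmg1, Psmg2, Psmg3 and Psmg4, which build the core, had between 10.7 and 19.8 per kb, and Psmd5, Psmd9 and Psmd10, which help to build the base, had between 7.48 and 11.3. Psmf1, an inhibitor of the core, was at 5.90 ± 1.06. Among the activators, Psme4 (PA200) was at 39.8 ± 0.832, Psme3 (the nuclear PA28 gamma) at 19.4 ± 0.785, and the interferon-inducible pair Psme1 and Psme2 at 1.85 ± 0.206 and 17.8 ± 1.45. The lengths used for this pair were 4227 and 965 bases, and the control means before division were 7.8 and 17.2. The lowest was Psmb10, at 1.52 ± 0.796, the beta subunit that replaces Psmb7 in the immunoproteasome.

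**Figure D1:**
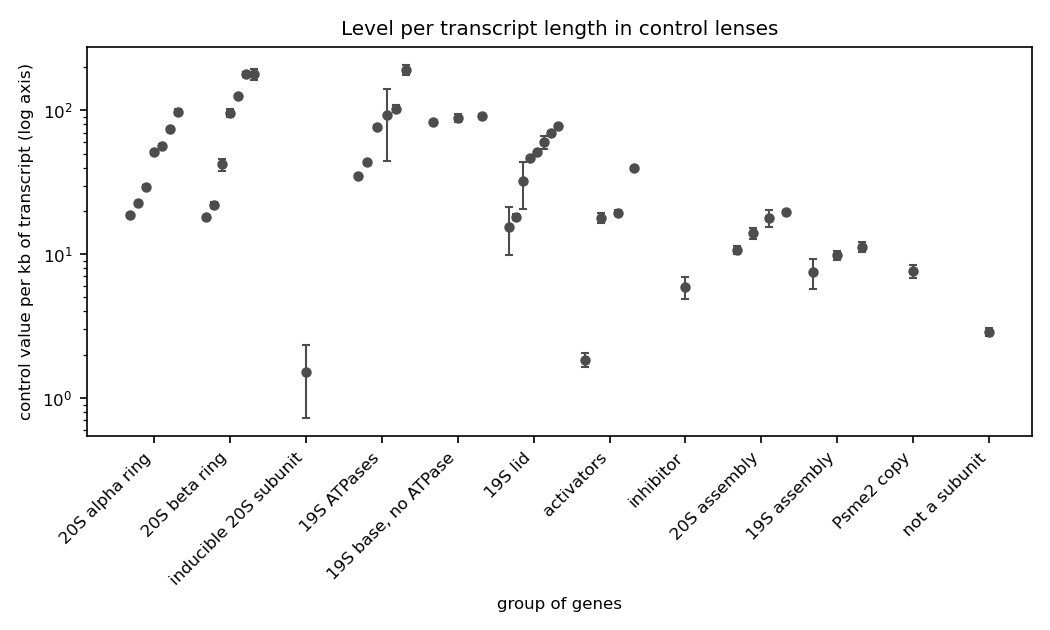
Mean value per kb of canonical transcript in the 3 control libraries (points) with the SD (bars), on a log axis, 1 point a gene, sorted within each group of genes. Psmc5, Psmb6 and Psmb4 are highest, between 177.8 and 191.6 per kb, and Psmb10 (1.52) and Psme1 (1.85) are lowest.

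Mafg and Mafk themselves were read first. Mafg had values of 112.9, 120.7 and 134.5 in control, 10.1, 21.0 and 24.1 in compound KO and 24.6, 21.2 and 26.2 in double KO libraries. For Mafk they were 5.2, 6.3 and 5.6 in control, 4.3, 5.3 and 4.8 in compound KO and 0.6, 0.0 and 0.3 in double KO libraries. Every library matched its genotype in this respect.

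A library that stands apart affects the compound KO group. Compound KO replicate 1 had the lowest total, a sum of 48910.7 over 10 lens fiber markers where the other 8 libraries had between 107992.7 and 178178.1, and a sum of 1142.0 over 5 lens epithelium markers where the control libraries had between 3170.9 and 3799.1. Its sum over 10 mesenchyme markers was 2245.3, against 23.1 to 232.3 in the others, over 7 skeletal muscle markers 296.3, against 1.8 to 68.5, and over 8 neural retina markers 483.5, against 24.3 to 173. The muscle sums were 1.8, 2.9 and 3.9 in control, 30.4 and 17.5 in the other compound KO and 68.5, 23.2 and 23.1 in double KO libraries. In muscle markers every knockout library thus lay above every control library. No marker of these lists was at 0 in all libraries of a group. The 5 lens epithelium markers summed to between 1645.9 and 2406.9 in the other 5 knockout libraries, below every control library. Most of this sum is Cryab, which had 2533.8, 2545.5 and 3190.7 in control and between 1123.6 and 1869.4 in those 5 libraries. Of the other 4, Cdh1 was also below control, Pax6 was higher in both knockout means, with log2 fold changes of 0.55 in compound KO and 0.21 in double KO lenses, and Foxe3 and Pdgfra overlapped between control and double KO libraries. The 8 erythroid markers summed to between 2060.0 and 3879.1 in the same 5 libraries, above the control range of 1171.3 to 1640.2. In bulk RNA, fewer cells of a type and less RNA per cell cannot be told apart. The part of these differences in the values of the proteasome genes was not tested, and the main results that rest on compound KO replicate 1 are given without it as well.

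Most proteasome genes had lower values in both knockouts than in control lenses, mostly by small differences, and none passed the test after adjustment. The 46 values added up to 4118.1, 4470.3 and 4285.7 in control libraries, to 3021.2, 3729.4 and 3764.5 in compound KO libraries and to 3617.6, 3944.5 and 3731.0 in double KO libraries. Every knockout library thus lay below every control library. The mean sum was 4291.4 ± 176.2 (SD, n = 3) in control, 3505.0 ± 419.4 in compound KO and 3764.4 ± 166.0 in double KO lenses, 18.3% and 12.3% lower than in control. Without compound KO replicate 1, the compound KO sum was 12.7% lower. Each gene weighs in this sum by its level.

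The comparison of each gene used log2(value + 1), limma with an intensity trend and two-sided p-values, with Benjamini-Hochberg adjustment across the whole table. Calls needed both an adjusted p no larger than 0.05 and a 1.5-fold change. A gene is written as nominally lower or higher where its unadjusted p was no larger than 0.05, which is no call. Between double KO and control lenses 51 of 14122 genes (0.361%) were called, and none of the 46 proteasome genes was. The smallest adjusted p among them was 0.0766, for Psmc1. Without adjustment, 22 proteasome genes were nominally lower (47.8%) where 5.18% of all genes tested were, and 1 was nominally higher (2.17%) where 4.79% of all were. The double KO libraries all lay below the control libraries for 25 of the 46 (54.3%) against 8.04% of all genes, and all above for 2 against 7.78%. The median log2 fold change was -0.18 over the proteasome genes and 0.01 over all genes tested, and 38 of the 46 were below 0 (82.6%), against 47.2% of all. The pseudocount understates the change of genes with low values, such as Psmb10.

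Between compound KO and control lenses no gene of 14348 was called (0%). Of the proteasome genes, 21 were nominally lower (45.7%) where 3.97% of all genes were, and 2 were nominally higher, Psme1 and Psmc3ip, where 5.34% of all were. The groups did not overlap, with the compound KO libraries lower, for 28 (60.9%) against 11.7% of all genes, and with them higher for 2 against 12.2%. The median was -0.26 over the proteasome genes and 0.02 over all genes. Without compound KO replicate 1, the median was -0.19 and 24 genes were nominally lower, with no share of all genes given here for that fit. Without control replicate 1, 2 or 3, the nominal differences in either direction numbered 9, 8 and 10 instead of 23. The smallest adjusted p was 0.450, for Psmb3, and the other 22 of these genes each had an adjusted p of 0.481. These 2 comparisons use the same 3 control libraries.

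The values depend on the scaling. When values were instead divided by the library total, the median log2 fold change over all genes moved to 0.07 in double KO and to 0.24 in compound KO lenses, so changes have to be read against it. The proteasome median was then -0.11 in double KO and -0.01 in compound KO lenses, 0.18 and 0.25 below the median of all genes, as against 0.19 and 0.27 with the deposited scaling. Then 13 genes were nominally lower and 1 nominally higher in double KO lenses, and 1 was nominally lower and 2 nominally higher in compound KO lenses. The shares of all genes under this scaling are not given here, so these counts cannot be read against them. As a share of the library total, the 46 genes held 0.397%, 0.395% and 0.401% in control, 0.415%, 0.378% and 0.368% in compound KO and 0.370%, 0.384% and 0.345% in double KO libraries. On this scale the double KO libraries remained below all control libraries, and compound KO replicate 1 had the highest share of the 9.

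**Figure D2:**
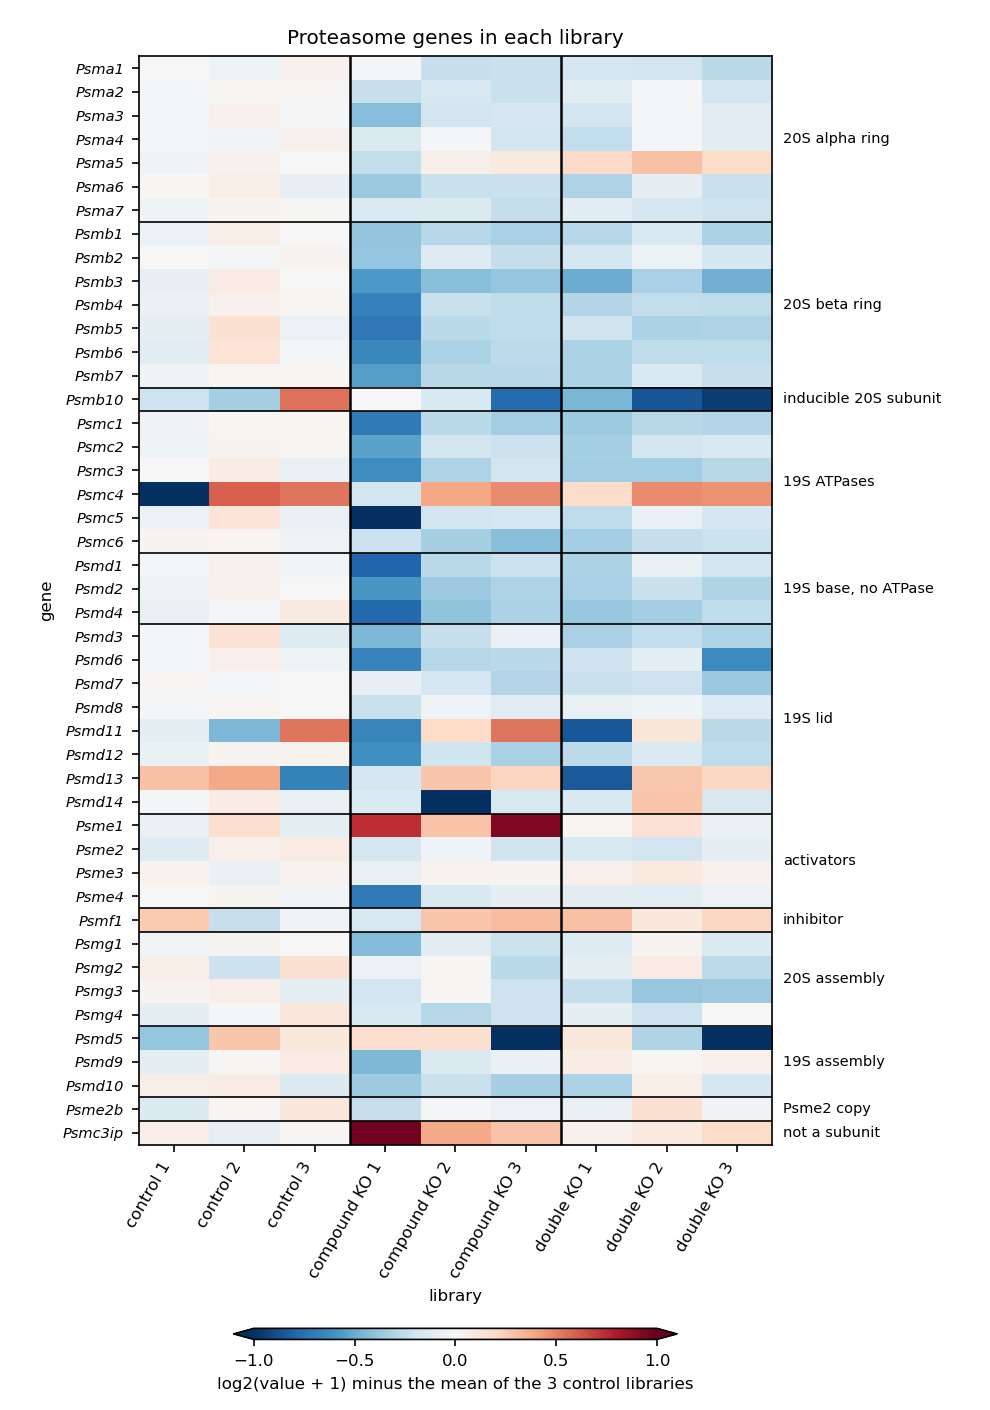
Difference of log2(value + 1) from the mean of the 3 control libraries for each of the 46 genes (rows, by role) in each of the 9 libraries (columns), blue lower and red higher, with the colour scale ending at 1 log2 unit. The median over the genes was between -0.37 and -0.11 in each of the 6 knockout libraries on the deposited scale. Dividing by library totals moves the compound KO median to -0.01.

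The beta ring had lower values in every member. All 7 beta subunits were nominally lower in both knockouts, and for all 7 the control libraries did not overlap with either knockout group on the deposited scale. Divided by library totals, all 7 were still lower in double KO lenses, 5 of them nominally, and 6 of 7 were lower in compound KO lenses, none of them nominally. Their sum was 848.0, 934.9 and 889.8 in control, 595.6, 735.0 and 731.1 in compound KO and 721.6, 765.5 and 735.3 in double KO libraries. The mean was 22.9% lower in compound KO and 16.9% lower in double KO lenses. Without compound KO replicate 1 it was 17.7% lower in compound KO lenses, and all 7 were still nominally lower there, with log2 fold changes from -0.41 (Psmb3) to -0.18 (Psmb2).

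Psmb3, a beta subunit without a cutting site, had values of 69.9, 78.6 and 74.3 in control, 49.4, 54.9 and 56.4 in compound KO and 52.2, 59.0 and 52.9 in double KO libraries. The 6 knockout libraries lay well below the 3 control libraries. Its log2 fold change was -0.46 (SE 0.09, adjusted p = 0.450, limma) in compound KO and -0.43 (SE 0.07, adjusted p = 0.138) in double KO lenses. Psmb3 lies at chr11:97594073-97604335, 22.9 Mb from Mafg, and the knockout of Mafg and the alleles linked to it cannot be told apart. Psmd12, Psmc5, Psme3, Psmc3ip and Psmd3 lie closer to Mafg, at 13.1, 14.4, 19.3, 19.5 and 21.9 Mb, and share this limit.

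The 3 subunits that cut peptides were lower by similar amounts. Psmb5, which cuts after hydrophobic residues and carries one of the printed matches, had values of 66.9, 79.6 and 68.7 in control, 43.3, 59.2 and 59.9 in compound KO and 62.1, 57.2 and 57.8 in double KO libraries. Psmb6, which cuts after acidic residues, had 170.8, 202.7 and 181.8 in control, 117.7, 147.8 and 153.7 in compound KO and 147.7, 154.3 and 155.0 in double KO libraries. Psmb7 had 141.6, 147.7 and 147.5 in control, 99.1, 119.7 and 119.4 in compound KO and 116.6, 130.9 and 123.9 in double KO libraries. For all 3, the highest knockout library was below the lowest control library, and compound KO replicate 1 was the lowest of the 9. Their log2 fold changes were -0.41, -0.41 and -0.37 in compound KO and -0.27, -0.28 and -0.23 in double KO lenses, with SEs between 0.06 and 0.15.

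The remaining beta subunits have structural roles in the ring. Psmb1 had values of 125.9, 138.0 and 130.8 in control, 99.7, 107.6 and 104.7 in compound KO and 107.8, 118.2 and 105.5 in double KO libraries. Psmb2 had 72.1, 71.2 and 73.7 in control, 55.0, 66.2 and 61.0 in compound KO and 63.8, 69.3 and 64.1 in double KO libraries. Psmb4 had 200.8, 217.1 and 213.0 in control, 131.4, 179.6 and 176.0 in compound KO and 171.4, 176.6 and 176.1 in double KO libraries. The difference was smallest in Psmb2, with a log2 fold change of -0.14 (SE 0.05) in double KO lenses, and the control libraries of Psmb2 differed little among themselves.

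Psmb10 was near the limit of what these values resolve. It had 1.5, 1.3 and 3.2 in control, 1.9, 1.6 and 0.7 in compound KO and 1.1, 0.6 and 0.5 in double KO libraries. The highest double KO library lay just below the lowest control library, and the control libraries themselves spread 2.46-fold. Its log2 fold change of -0.75 (SE 0.28, adjusted p = 0.454, limma) in double KO lenses was the lowest of the 46.

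The alpha ring differed less than the beta ring, and 1 of its members was higher. The sum of the 7 alpha subunits was 529.3, 541.7 and 533.8 in control, 456.8, 488.0 and 476.3 in compound KO and 485.5, 525.5 and 486.5 in double KO libraries, with means 11.4% and 6.69% lower than in control. Divided by library totals, 5 of the 7 were higher in compound KO lenses. With the deposited scaling, 4 of 7 were nominally lower in compound KO lenses (Psma2, Psma3, Psma6 and Psma7) and 3 of 7 in double KO lenses (Psma1, Psma6 and Psma7).

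Psma5 went the other way in double KO lenses. It had 69.7, 73.9 and 72.1 in control, 60.5, 75.1 and 77.1 in compound KO and 82.2, 88.1 and 81.6 in double KO libraries. The double KO libraries lay above the 6 others, with a log2 fold change against control of 0.22 (SE 0.05, adjusted p = 0.264, limma) that ranged from 0.19 to 0.29 over the alternatives. In compound KO lenses the log2 fold change was -0.03 (SE 0.11).

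Psma1, Psma6 and Psma7 were lower in double KO lenses. Psma1 had 77.4, 74.7 and 79.3 in control, 76.0, 65.6 and 66.0 in compound KO and 68.1, 67.5 and 63.7 in double KO libraries. Psma6 had 102.9, 106.0 and 96.0 in control, 78.5, 87.1 and 86.8 in compound KO and 82.0, 95.0 and 86.9 in double KO libraries. Psma7 had 67.9, 71.5 and 70.5 in control, 63.3, 63.3 and 59.3 in compound KO and 64.8, 62.0 and 60.4 in double KO libraries. In Psma6 the highest double KO library was close to the lowest control library, and in Psma1 the compound KO and control libraries overlapped.

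Psma2, Psma3 and Psma4 overlapped between double KO and control lenses. Psma2 had 77.7, 79.7 and 79.4 in control, 67.2, 70.5 and 67.6 in compound KO and 72.4, 78.4 and 69.0 in double KO libraries. Psma3 had 66.6, 69.6 and 66.7 in control, 50.2, 59.2 and 60.1 in compound KO and 59.2, 67.2 and 62.4 in double KO libraries. In both genes the compound KO libraries lay below all others except for a double KO library, and Psma4 had log2 fold changes of -0.11 (SE 0.08) and -0.12 (SE 0.07) in compound and double KO lenses.

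**Figure D3:**
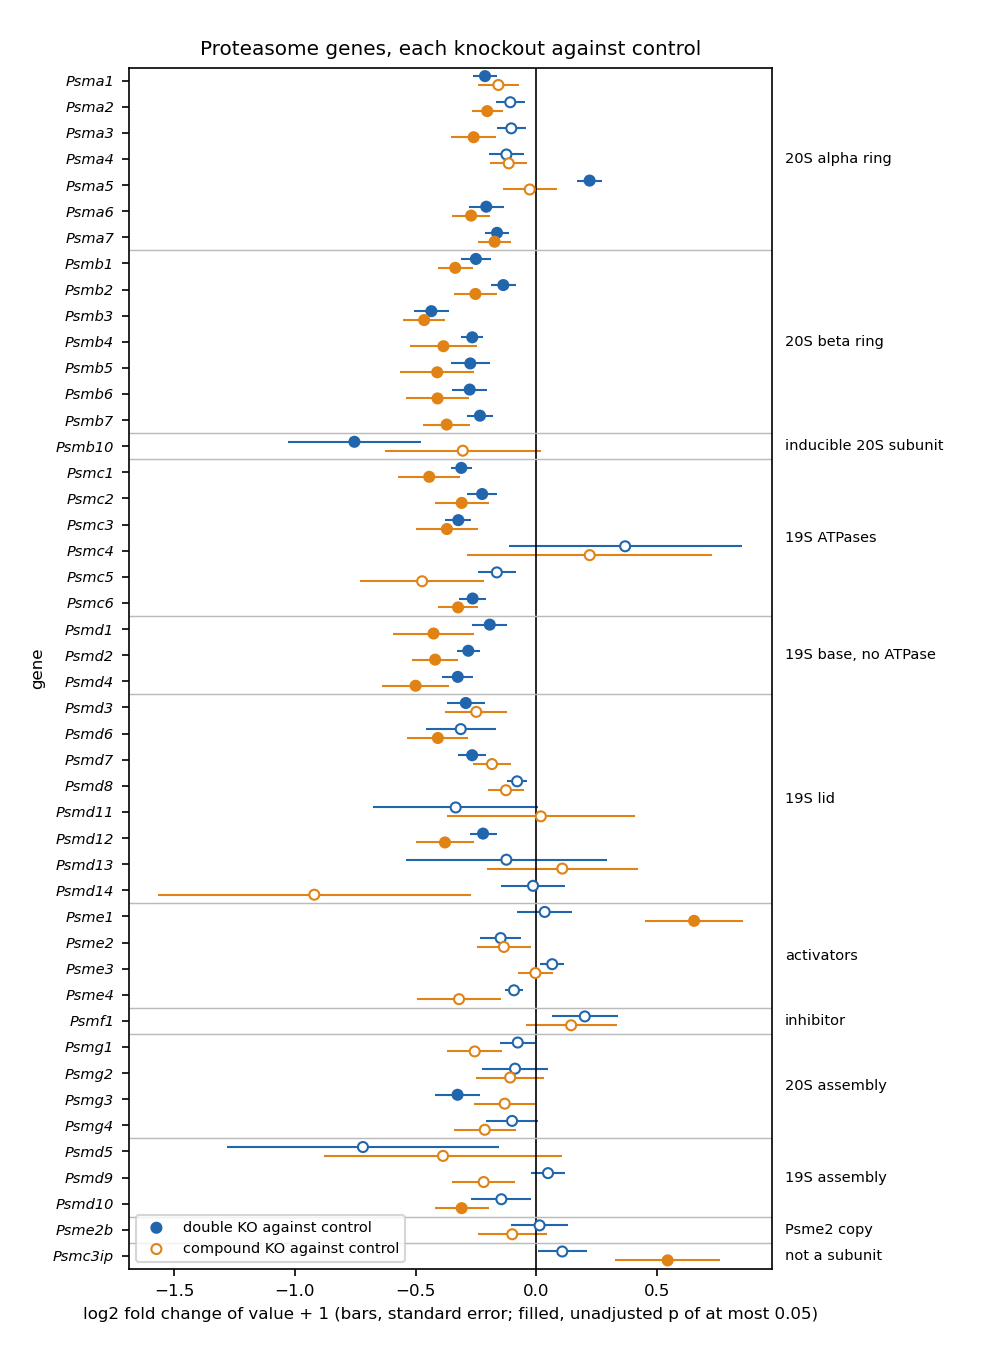
Log2 fold change of value + 1 (horizontal axis) with its standard error (bars) for each of the 46 genes, compound KO against control in orange and double KO against control in blue, filled for nominal differences (unadjusted p no larger than 0.05). All 7 beta subunits lie to the left of 0 with filled points in both comparisons, which share their control libraries, and none of the 46 passed after adjustment. Divided by library totals, 22 of the 46 lie above 0 in compound KO lenses.

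In the base of the 19S particle, 7 of 9 genes were nominally lower in each comparison with control, 4 of 6 ATPases and 3 of 3 others. The ATPases unfold the substrate and feed it into the core. Psmc1 (chr12:100076404-100090692) had 197.6, 204.9 and 204.8 in control, 123.6, 167.3 and 158.5 in compound KO and 157.5, 166.9 and 164.7 in double KO libraries. The control libraries lay close together and above the other 6, and the log2 fold change was -0.44 (SE 0.13, adjusted p = 0.481, limma) in compound KO and -0.31 (SE 0.04, adjusted p = 0.0766) in double KO lenses.

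Psmc2, Psmc3 and Psmc6 showed the same order of groups. Psmc2 had 122.0, 128.0 and 127.1 in control, 86.6, 110.6 and 108.3 in compound KO and 99.5, 110.3 and 112.9 in double KO libraries. Psmc3 had 167.7, 177.1 and 159.1 in control, 108.9, 135.4 and 147.5 in compound KO and 132.0, 131.8 and 138.1 in double KO libraries. Psmc6, which carries a printed match, had 80.5, 80.1 and 76.2 in control, 67.8, 62.5 and 58.5 in compound KO and 62.1, 66.9 and 67.8 in double KO libraries. None of the 3 overlapped between control and either knockout, with log2 fold changes from -0.37 to -0.22.

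Psmc4 and Psmc5 were less uniform. Psmc4 had 52.9, 177.3 and 169.9 in control, 102.2, 153.2 and 162.4 in compound KO and 132.8, 162.7 and 160.0 in double KO libraries. Its higher log2 fold changes of 0.37 (SE 0.48) in double KO and 0.22 (SE 0.51) in compound KO lenses rest on control replicate 1, and the 2 other control libraries were above every knockout library. Psmc5 had 264.0, 301.8 and 260.3 in control, 131.8, 241.1 and 242.9 in compound KO and 230.2, 261.7 and 244.6 in double KO libraries. Only compound KO replicate 1 was far below the rest in Psmc5, and the log2 fold change of -0.47 (SE 0.26, adjusted p = 0.482, limma) in compound KO lenses was -0.18 (SE 0.08) without that library.

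Psmd1 and Psmd2 form the scaffold of the base, and Psmd4 is a ubiquitin receptor. Psmd1 had 272.1, 285.3 and 271.5 in control, 158.6, 229.5 and 238.0 in compound KO and 221.2, 263.2 and 242.0 in double KO libraries. Psmd2 had 268.3, 284.6 and 275.9 in control, 183.8, 214.9 and 222.3 in compound KO and 220.7, 237.1 and 223.5 in double KO libraries. Psmd4 had 111.7, 116.6 and 125.9 in control, 68.4, 88.8 and 94.4 in compound KO and 90.4, 92.9 and 98.6 in double KO libraries. All 3 were without overlap between control and either knockout, and Psmd4 had the largest differences, with log2 fold changes of -0.50 (SE 0.14) and -0.33 (SE 0.06) in compound and double KO lenses. Their sum was 25.5% lower in compound KO lenses, 18.9% lower there without compound KO replicate 1, and 16.0% lower in double KO lenses, and all 3 were also lower in both when divided by library totals.

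**Figure D4:**
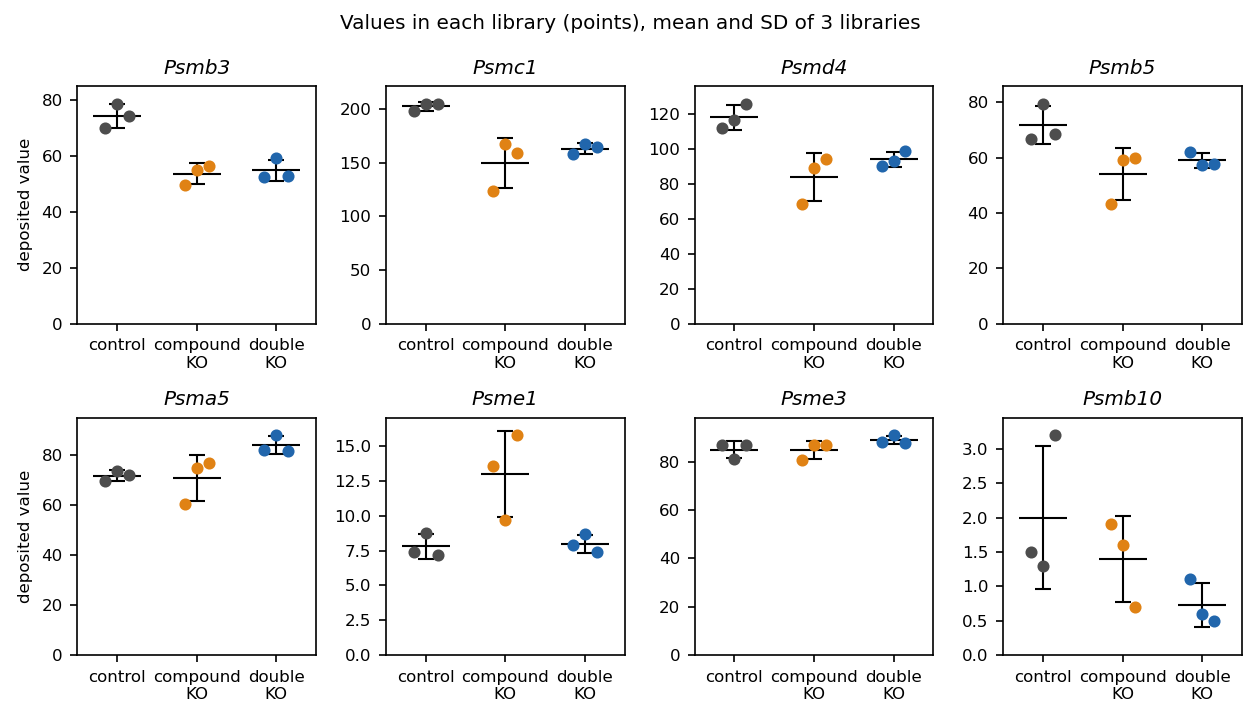
Deposited values (axis from 0) of 8 genes in each library (points) with the mean and SD of 3 libraries (black). In Psmb3, Psmc1, Psmd4 and Psmb5 every knockout library lies below every control library, Psma5 is highest in the double KO libraries, Psme1 in the compound KO libraries, and Psme3 has log2 fold changes of 0.00 and 0.07.

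The lid removes the ubiquitin chain. Of its 8 genes, 3 were nominally lower in double KO lenses (Psmd3, Psmd7 and Psmd12) and 2 in compound KO lenses (Psmd6 and Psmd12). Psmd12, with a printed match, had 84.7, 90.7 and 91.0 in control, 57.7, 77.2 and 70.7 in compound KO and 74.0, 80.0 and 74.2 in double KO libraries. Psmd7, a partner of the deubiquitinating subunit that also carries a match, had 83.0, 81.4 and 81.9 in control, 77.7, 72.4 and 66.8 in compound KO and 70.3, 71.0 and 63.3 in double KO libraries. In Psmd7 the control libraries lay close together with every knockout library below them, with log2 fold changes of -0.18 (SE 0.08) and -0.27 (SE 0.06) in compound and double KO lenses.

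Psmd3 had 128.4, 143.2 and 118.3 in control, 94.6, 110.4 and 123.6 in compound KO and 103.4, 109.0 and 104.6 in double KO libraries. Psmd6 had 95.0, 99.3 and 92.9 in control, 59.8, 78.3 and 79.3 in compound KO and 82.8, 89.3 and 61.3 in double KO libraries. For Psmd3 the double KO libraries were below all control libraries and a compound KO library was not, and for Psmd6 both knockouts were below control with a wide spread. Psmd8 had log2 fold changes of -0.13 (SE 0.07) and -0.08 (SE 0.04) in compound and double KO lenses, neither of them nominal.

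Of the other lid genes, Psmd14 and Psmd13 had single libraries far below their group, and Psmd11 spread widely in every group. Psmd14, the deubiquitinating subunit, had 44.2, 46.9 and 42.6 in control, 40.2, 7.3 and 39.8 in compound KO and 39.9, 54.1 and 39.7 in double KO libraries. Psmd13 had 74.8, 79.2 and 37.7 in control, 53.9, 73.7 and 70.7 in compound KO and 33.4, 73.3 and 70.1 in double KO libraries. Psmd11 had 40.3, 31.1 and 62.7 in control, 26.7, 48.9 and 62.5 in compound KO and 23.4, 46.6 and 35.3 in double KO libraries. In each of them the highest library of some group, of whichever genotype, was at least 2 times its lowest. Over all groups, 5 of the 44 proteasome genes with a mean of at least 5 (11.4%) had a group whose highest library was at least 2 times its lowest, and 29.8% of the 10391 genes with such a mean did.

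**Figure D5:**
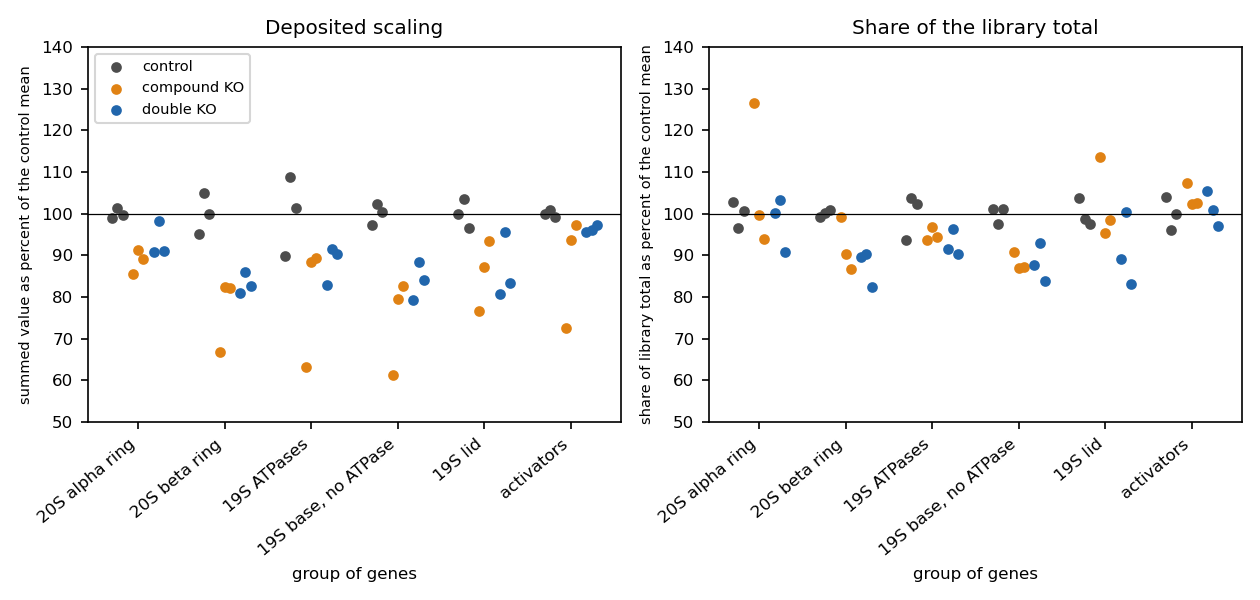
Summed values of the 20S rings, the parts of the 19S particle and the activators in each library as percent of the control mean (vertical axis, not from 0), with the deposited scaling (left) and as a share of the library total (right). With the deposited scaling the knockout libraries of the beta ring lie below every control library. On the right, compound KO replicate 1 is the highest of the 9 libraries for the alpha ring, the lid and the activators, and the other compound KO libraries lie below 100% for the alpha ring and the lid.

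Among the 4 activators, Psme1 was nominally higher in compound KO lenses, and none was nominally different in double KO lenses. Psme1 had 7.4, 8.8 and 7.2 in control, 13.6, 9.7 and 15.8 in compound KO and 7.9, 8.7 and 7.4 in double KO libraries. The 3 compound KO libraries lay above the 6 others, with a log2 fold change of 0.65 (SE 0.20, adjusted p = 0.481, limma) against control and of 0.03 (SE 0.11) for double KO against control. Between the 2 knockouts it was -0.62 (SE 0.20, adjusted p = 0.665). The partner subunit Psme2 had 15.6, 17.8 and 18.2 in control, 15.2, 16.7 and 14.8 in compound KO and 15.3, 14.9 and 16.0 in double KO libraries, and thus did not share this pattern. Macrophage markers, of which 6 of 8 were in the table, also summed higher in compound KO libraries, between 19.8 and 30.8 where control libraries had 10.8 to 14.0 and double KO libraries 6.8 to 13.6, and their part in the Psme1 values was not tested. Of 12 genes of the interferon response and antigen presentation in the table, 9 were tested in compound KO against control lenses. Among those tested, 2 were nominally higher (5.34% of all genes) and none nominally lower (3.97% of all).

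Psme3 had 87.0, 81.1 and 87.1 in control, 80.6, 87.0 and 86.9 in compound KO and 88.2, 91.1 and 87.8 in double KO libraries. Its log2 fold changes were 0.00 (SE 0.07) in compound KO and 0.07 (SE 0.05) in double KO lenses. Psme4 had 258.7, 264.0 and 253.2 in control, 158.1, 232.1 and 241.4 in compound KO and 240.7, 239.1 and 247.6 in double KO libraries, with log2 fold changes of -0.32 (SE 0.17) and -0.09 (SE 0.04) in compound and double KO lenses. Compound KO replicate 1 was far below the rest, and without it the former was -0.13 (SE 0.04) and nominally lower. Psmf1 had 27.0, 19 and 21.9 in control, 20, 27.4 and 28.0 in compound KO and 27.6, 24.2 and 26.0 in double KO libraries. In Psmf1 the groups overlapped.

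Of the 7 assembly factors, 1 was nominally lower in double KO lenses (Psmg3) and 1 in compound KO lenses (Psmd10). Psmg3, part of a chaperone of the alpha ring, had 9.7, 10.0 and 8.9 in control, 8.2, 9.6 and 8.1 in compound KO and 7.9, 7.1 and 7.2 in double KO libraries. The double KO libraries lay below the 6 libraries that keep an intact Mafk allele, with a log2 fold change against control of -0.33 (SE 0.09, adjusted p = 0.337, limma). Psmg3 lies at chr5:139809347-139812741, only 20.9 kb from Mafk, and an effect of the targeted locus on its neighbour and the loss of the Mafk protein cannot be told apart. Psmg1, Psmg2 and Psmg4 had log2 fold changes between -0.26 and -0.08 in the 2 knockouts, none of them nominally different.

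Psmd10, an assembly factor of the base, had 17.4, 17.6 and 15.1 in control, 12.7, 14.1 and 13.0 in compound KO and 13.2, 17.4 and 14.6 in double KO libraries, and was nominally lower in compound KO lenses. Psmd9, which carries a printed match, had 23.7, 25.7 and 27.0 in control, 18.4, 22.9 and 24.3 in compound KO and 26.9, 25.7 and 26.4 in double KO libraries. Psmd9 lies 16.4 Mb from Mafk, and for it the knockout of Mafk and the alleles linked to Mafk cannot be told apart. Psmd5 had 24.5, 39.4 and 34.8 in control, 36.3, 36.2 and 10.9 in compound KO and 35.1, 26.0 and 7.5 in double KO libraries, with 1 library far below the others in each knockout. Psmc3ip, the gene that is no subunit, had 4.0, 3.5 and 3.8 in control, 8.3, 5.2 and 4.8 in compound KO and 3.9, 4.1 and 4.4 in double KO libraries.

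Genes with a promoter match were nominally lower somewhat more often than those without. Of the 8 genes with TGACNNNGC, 6 were nominally lower in double KO and 5 in compound KO lenses, and of the 38 others 16 were in each. The median log2 fold changes were -0.24 with and -0.16 without the match in double KO lenses, and -0.29 and -0.26 in compound KO lenses. Of the 12 with TGAGNNNGC, 8 were nominally lower in double KO and 7 in compound KO lenses, and of the 34 others 14 were in each. With either of them the numbers were 10 and 9 of 16, and without them 12 of 30 in each. These are counts with no test, over few genes. Psmb3, which had the lowest values relative to control in the ring, holds TGAGNNNGC and no TGACNNNGC.

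By genotype, compound KO lenses keep an intact Mafk allele that double KO lenses lack. Between them 2 of 14402 genes (0.0139%) were called, no proteasome gene among them. A single proteasome gene, Psme1, was nominally lower in double KO lenses where 3.06% of all genes were, and none was nominally higher where 1.81% of all were. The median log2 fold change of the 46 was 0.09, that over all genes -0.01, and 34 of the 46 were higher in double KO lenses. Without compound KO replicate 1 the median was 0.01, and with values divided by library totals it was -0.09, against -0.17 over all genes. The largest differences upwards were those of Psmd14 (0.91, SE 0.66) and Psmc5 (0.31, SE 0.26), and those downwards were of Psme1 (-0.62), Psmb10 (-0.45) and Psmc3ip (-0.44). Psmd14 rests on compound KO replicate 2, and Psmc5 had 0.02 (SE 0.07) without compound KO replicate 1.

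Since both knockouts lack Mafg, their 6 libraries were also compared as 1 group with the 3 control libraries, a comparison chosen after seeing the data. No proteasome gene reached an adjusted p of 0.05 or below, as 16 of 14578 genes did (0.110%). Of the 46, 21 were nominally lower where 3.81% of all genes were, and none was nominally higher where 3.76% were. All 6 libraries lay below all 3 control libraries for 21 of the 46 (45.7%) where 4.27% of all genes had this pattern, and above for none where 2.68% had. The smallest adjusted p was 0.0819, for Psmb3, with a log2 fold change of -0.45. Without compound KO replicate 1, 104 of 14342 genes (0.725%) reached an adjusted p of 0.05 or below, and 5 of them were proteasome genes. These were Psmc1 (log2 fold change -0.31, SE 0.04, adjusted p = 0.0129, limma), Psmd2 (-0.30), Psmb3 (-0.42), Psmb4 (-0.26) and Psmd4 (-0.34), all lower and all under 1.5-fold. In the other alternatives to this comparison no proteasome gene passed.

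Other genes of the pathway were taken from lists of partners and regulators. Of 11 proteasome partners in the table, 2 were nominally lower in double KO lenses (5.18% of all genes) and 3 in compound KO lenses (3.97% of all). None was nominally higher, where 4.79% and 5.34% of all genes were. Divided by library totals, 1 was nominally lower in double KO lenses and none in compound KO lenses. Adrm1, a ubiquitin receptor of the 19S particle that lies outside the name pattern, had 73.9, 91.4 and 81.1 in control, 50.9, 63.4 and 68.7 in compound KO and 66.9, 64.0 and 64.5 in double KO libraries, with log2 fold changes of -0.43 (SE 0.14) and -0.32 (SE 0.08). Ubqln1, a shuttle that brings tagged proteins to the proteasome, had 175.0, 177.8 and 171.8 in control, 125.7, 150.5 and 152.1 in compound KO and 156.1, 147.4 and 165.4 in double KO libraries. Both were without overlap between control and either knockout. Txnl1, a redox protein of the 19S particle, had 69.4, 68.8 and 69.0 in control, 63.0, 59.0 and 57.7 in compound KO and 64.0, 66.8 and 66.5 in double KO libraries. Pomp, which matures the core, overlapped between double KO and control lenses, with a log2 fold change of -0.09 (SE 0.07).

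Uba1, the main ubiquitin-activating enzyme, had 393.2, 415.7 and 381.3 in control, 308.6, 358.1 and 366.9 in compound KO and 367.8, 356.8 and 362.2 in double KO libraries. The knockout libraries lay below control on the deposited scale, and the log2 fold change of -0.13 (SE 0.05) in double KO lenses was nominally lower. Divided by library totals, none of the 5 ubiquitin genes, Uba1 among them, was nominally lower in either knockout. All 5 were then higher in compound KO lenses.

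The table holds 15 genes that encode Nrf1, Nrf2, their relatives, the small Mafs and the enzymes that process Nrf1. In double KO against control lenses 14 of them were tested. Among those tested, 4 were nominally lower (5.18% of all genes) and 2 of the 4, Mafg and Mafk, were called (0.361% of all). Nfe2l1, which encodes Nrf1, had 45.2, 79.6 and 79.9 in control, 46.4, 71.6 and 76.2 in compound KO and 75.8, 41.0 and 63.6 in double KO libraries. The groups overlapped, with a low library in each. Nfe2l2 had 29.0, 31.4 and 31.2 in control, 22.0, 9.5 and 23.4 in compound KO and 22.5, 25.7 and 21.3 in double KO libraries, below control in all 6 knockout libraries, with a log2 fold change of -0.39 (SE 0.09, adjusted p = 0.251, limma) in double KO lenses. Bach1, a repressor that shares the same elements, had 17.8, 15.8 and 17.5 in control, 35.7, 21.2 and 20.1 in compound KO and 18.9, 19.1 and 17.3 in double KO libraries. Of the genes that process Nrf1, Nploc4 had 72.8, 75.3 and 71.3 in control, 52.1, 61.4 and 62.7 in compound KO and 65.3, 65.1 and 60.2 in double KO libraries, and Ngly1 had 19.6, 21.6 and 20.2 in control, 15.3, 17.1 and 17.4 in compound KO and 17.9, 21.3 and 18.9 in double KO libraries. Nploc4 was nominally lower in both knockouts, and Ngly1 in compound KO lenses. Nploc4 lies at chr11:120270625-120328587, near Mafg at chr11:120515942-120524530. An effect of the targeted locus on Nploc4 and the loss of the Mafg protein cannot be told apart.

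The oxidative stress genes driven through the same elements were mostly higher. Of 10 such genes, 6 were nominally higher in double KO lenses, where 4.79% of all genes tested were. None was nominally lower (5.18% of all), and 2 were called (0.361% of all). In compound KO lenses 4 of the 10 were nominally higher (5.34% of all), 2 had log2 fold changes below 0 and none was called. Gclm, whose promoter match is printed above with those of the proteasome genes, had 47.2, 49.0 and 50.3 in control, 48.6, 65.4 and 88.1 in compound KO and 98.2, 106.8 and 103.0 in double KO libraries. Its log2 fold change in double KO lenses was 1.06 (SE 0.05, adjusted p = 0.0023, limma), where that of the 8 proteasome genes with the same letters had a median of -0.24. Prdx1 and Txnrd1, oxidative stress genes that also hold TGACNNNGC before the start, differed less. Their log2 fold changes in double KO lenses were 0.13 (SE 0.07) and 0.32 (SE 0.07), and only Txnrd1 was nominally higher.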

How the data were processed

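RNA-seq of E16.5 mouse lenses (3 libraries for each of 3 genotypes) was used as deposited. The strand-specific paired-end reads were trimmed (Trimmomatic), aligned (HISAT2, mm39) and counted per transcript (StringTie) by the authors, who dropped entries of low CPM after import into edgeR (Cufflinks is also named in the submitters' processing notes, and versions are not given in the sources used here). The deposited values are a signal with 1 decimal. From their unequal totals they appear to be CPM times a factor for each library, but the scaling is not given in the sources used here. Depth is unknown, so precision is the spread between libraries. No batch is named in the labels.

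Here, limma 3.58.1 (R 4.3.3) was fitted to log2(value + 1) with an intensity trend, for 2 groups at a time. Entries needed a symbol and had to reach a value of 1 in 2 or more of the 6 libraries, and Benjamini-Hochberg adjustment ran over all of them. The fit was first tested on simulated data. An exact permutation test of 3 against 3 libraries cannot give a p below 0.1 and was not used. The named genes are those with an unadjusted p no larger than 0.05, the 3 largest differences in each direction, the catalytic subunits, Psmf1 and the partners at that p. The genes and lists were chosen with earlier results of these data known. Positions, transcript lengths and promoter windows come from GENCODE M39 on GRCm39 (Python 3.11.15, pandas 2.3.3). No promoter of chromosome 18 is printed, and the count of genes with a printed match leaves that chromosome out. Psmg2, which holds TGACNNNGC, lies on it, and where its match lies relative to the start is not given here. The alternatives were other scalings, filters, pseudocounts and fits, summed entries, the 44 genes without Psmc3ip and Psme2b, and each replicate left out. Some genes of the ubiquitin list are not reported here.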

Additional observations from a re-analysis of the deposited data

How the results depend on the processing

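No proteasome gene was called in any of the 3 pairs of groups under any of the 14 alternative fits of each, and the sum over the genes kept its direction against control in all of them. Scaling by library size moved the most values. The number of genes at an unadjusted p of at most 0.05 was then 14 instead of 23 in double KO and 3 instead of 23 in compound KO lenses. The shares of all genes at that p under this scaling are not given here. The median log2 fold change was -0.11 instead of -0.18 in double KO lenses, -0.01 instead of -0.26 in compound KO lenses and -0.09 instead of 0.09 between the knockouts. The ratio of mean sums was 0.922 instead of 0.877, 0.973 instead of 0.817 and 0.947 instead of 1.074, in the same order. For the 6 Mafg-/- libraries against control it left 11 genes instead of 21, a median of -0.07 instead of -0.23 and a ratio of 0.948 instead of 0.847. Of the 23 genes in compound KO lenses, 3 had log2 fold changes that turned to the positive side under this scaling, Psma2 (0.05), Psma7 (0.08) and Psmb2 (0.00). Over all 46 genes, 24 were then lower in compound KO lenses, instead of 40. The cause was not tested.

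With the replicate number as a block, 14 genes instead of 23 were at an unadjusted p of at most 0.05 in compound KO lenses, 21 in double KO lenses, 0 instead of 1 between the knockouts and 22 instead of 21 for the 6 Mafg-/- libraries. Once group means were taken out, same-numbered libraries had correlations from -0.11 to 0.22, so the numbers were not taken as pairs. One fit of all 9 libraries gave 4 genes instead of 1 between the knockouts, and 16 in double KO lenses. Leaving out 1 library at a time, the number at an unadjusted p of at most 0.05 ranged from 17 to 25 in double KO lenses, from 8 to 26 in compound KO lenses (9, 8 and 10 without control replicate 1, 2 and 3), from 0 to 1 between the knockouts (0 without compound KO replicate 1 or double KO replicate 1 or 3) and from 16 to 27 for the 6 Mafg-/- libraries, where between 0 and 5 passed after adjustment. The medians then ranged from -0.25 to -0.14, from -0.30 to -0.19, from 0.01 to 0.13 and from -0.26 to -0.21, and the ratios from 0.856 to 0.896, from 0.787 to 0.873, from 1.005 to 1.115 and from 0.830 to 0.876. Each fit that leaves a library out has 1 group of 2. The ratios of sums do not depend on the filter, the pseudocount or the block and were not recomputed for these. Without Psmc3ip and Psme2b the numbers were 23, 22, 1 and 21.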
